A study of Populus trichocarpa with 12 samples.

Results

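The lines compared here are 6 of the 9 transgenic black cottonwood trees (Populus trichocarpa, Nisqually-1 background) that overexpress miR397a in this series of 12 RNA sequencing libraries of developing xylem. They were chosen by the measured level of 1 locus, Potri.011G041300, which was nearly absent from wild type: the 3 lines with the highest level (lines 10, 6 and 5, the high lines) and the 3 with the lowest (lines 30, 17 and 1, the low lines). Lines 9, 3 and 26 lay between them and are called the middle lines. All 9 lines carry PtrMIR397a under the constitutive 35S promoter of cauliflower mosaic virus, each is a separate tree, and the 3 controls are wild-type trees of the same background grown in a greenhouse. Neither tree age nor the number of inserted gene copies is stated. Nothing in them pairs the identifiers with gene names, so loci are given by identifier or by the chromosome number that the identifier carries, without a role. The labelled tissue could for the same reason not be checked against marker genes.

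Plant microRNAs pair with matching stretches in messenger RNAs and guide their cleavage or block their translation. The known targets of miR397 are laccase mRNAs. Laccases, which carry copper and act in the wall, oxidise monolignols, the alcohols that then couple into lignin, the polymer that stiffens the walls of fibres and vessels in wood. Independent transgenic lines usually differ in how strongly a transgene is expressed. The comparison asked which other transcripts differ between lines that differ in Potri.011G041300. No label says whether that locus is part of the transgene.

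Potri.011G041300 stood at 81.7, 56.5 and 41.8 CPM (read counts scaled to a common library size with TMM factors) in lines 10, 6 and 5. In lines 30, 17 and 1 it stood at 28.6, 23.9 and 23.4 CPM. The middle lines 9, 3 and 26 held 35.1, 34.3 and 31.7 CPM, and wild type had 0, 2 and 0 reads. The means were 60.0 ± 20.2 CPM in the high lines and 25.3 ± 2.83 CPM in the low lines (SD, n = 3 each), a 2.37-fold difference that the choice of lines fixed and that was not tested. The high lines thus differed more among themselves than the low lines did, and line 10 stood alone at the top.

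At the lower border of the high group, line 5 rested on 366 reads with a 95% exact Poisson interval of 37.7 to 46.4 CPM, and line 9, just outside, had an interval of 32.4 to 38.1 CPM. At the upper border of the low group, line 30 had an interval of 26.1 to 31.3 CPM, and line 26, just outside, 29.6 to 33.9 CPM. Both pairs of intervals, which cover counting error only, overlapped. The order of the 9 lines was the same with DESeq2 size factors and with upper-quartile factors. Scaled by library totals alone, lines 10, 6 and 5 were again the top 3, but line 26 was lowest at 25.2 CPM and line 30, at 32.8, stood above line 3, at 30.7. The makeup of the low group thus depends on the scaling.

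**Figure D1:**
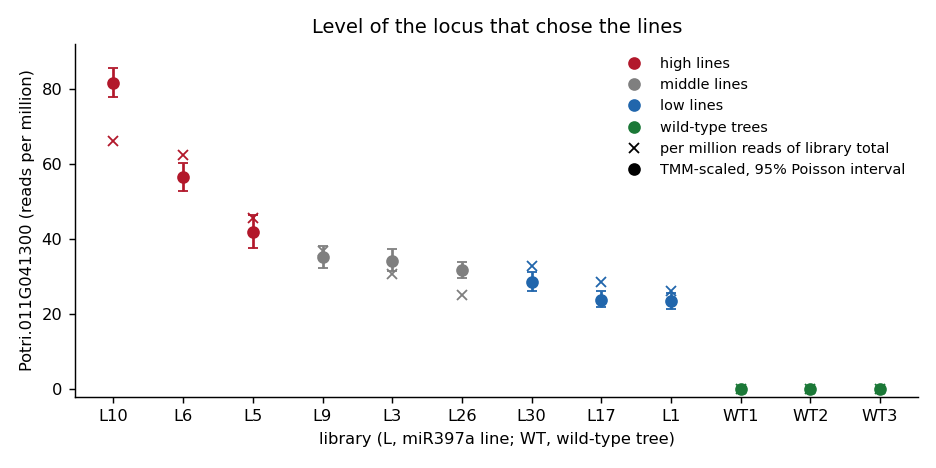
Level of Potri.011G041300 in each of the 12 libraries, in CPM: points are TMM-scaled values with 95% exact Poisson intervals for counting error, and crosses are values scaled by library totals alone. The 9 lines run from 81.7 to 23.4 CPM, with intervals that overlap at either border of the middle lines. The 3 wild-type trees lie at or next to 0.

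The loci beside Potri.011G041300 on chromosome 11 did not share its pattern. The nearest tested neighbour on one side stood at 2.47 ± 0.56 CPM in the high lines, 4.36 ± 2.139 in the low lines and 2.95 ± 0.41 in wild type (SD, n = 3 each). The nearest on the other side stood at 3.34 ± 0.60, 4.72 ± 0.022 and 4.38 ± 1.09 CPM. Neither passed the test between high and low lines (edgeR adjusted p = 0.35 and 0.27), and at both the wild-type mean lay between those of the high and low lines, whereas Potri.011G041300 had 2 reads over the 3 wild-type trees. No other locus had the same counts as Potri.011G041300 in all 12 libraries.

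Reads summed over loci ran from 8015226 (line 5) to 26054395 (line 10) in the high lines and from 14485103 to 20100748 in the low lines, so line 5 gives the least precise values. Rank correlations of log2 expression were 0.979 to 0.985 within the high lines, 0.980 to 0.988 within the low lines and 0.967 to 0.985 between them. A stretch of 9 loci on chromosome 5 took 16.8%, 3.77% and 2.80% of the reads in lines 10, 6 and 5, and 1.27%, 1.14% and 3.91% in lines 30, 17 and 1. Its share was 7.55% to 18.7% in the middle lines. Earlier results of these data set lines 5, 17 and 30 apart from the others, so 1 high and 2 low lines belong to that set.

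With Potri.011G041300 left out, no locus differed between the high and low lines at the threshold. Of 25484 tested loci, 0 (0%) passed an adjusted p of 0.05 (edgeR quasi-likelihood test, Benjamini-Hochberg adjustment), and the smallest adjusted p was 0.22. Unadjusted p fell below 0.05 at 3996 loci, 2253 lower in the high lines (8.84%) and 1743 higher (6.84%). This count depended on single lines: it was 1905 (1187 lower, 718 higher) without line 10 and 1986 (1328 lower, 658 higher) without line 17. It was 2858 without line 30, and rose to 4345, 4492 and 4802 without lines 6, 1 and 5. With the share of reads on the chromosome 5 stretch as a covariate it was 1105 (730 lower, 375 higher). The counts by level, chromosome and position below use the 3996 loci and carry the same limit. The 3 high and 3 low values did not overlap at 2478 loci lower in the high lines (9.72%) and at 2763 higher (10.8%). Fold changes were small: 22220 loci (87.2%) lay within 0.5 of 0 on the log2 scale, 609 (2.39%) differed by more than 2-fold in fitted level, and the median was -0.0046.

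The count of calls depended on the tool and on single lines. limma-voom called 0 loci, whereas DESeq2 called 247, 216 of them lower and 31 higher in the high lines. Leaving out line 1 gave 25 edgeR calls, 22 lower and 3 higher. Leaving out line 17 gave 1, and leaving out line 10, 6, 5 or 30 gave 0. Without lines 5, 17 and 30 it called 80, of which 77 were lower, in a fit where line 1 is the lone low line and is assumed to vary like the high lines. With library totals in place of TMM, 60 of 3029 loci with an unadjusted p below 0.05 were higher in the high lines (1.98%) against 1743 of 3996 (43.6%), and the median of all loci moved to -0.21. Directions below are thus relative to a scaling that holds most loci near 0.

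**Figure D2:**
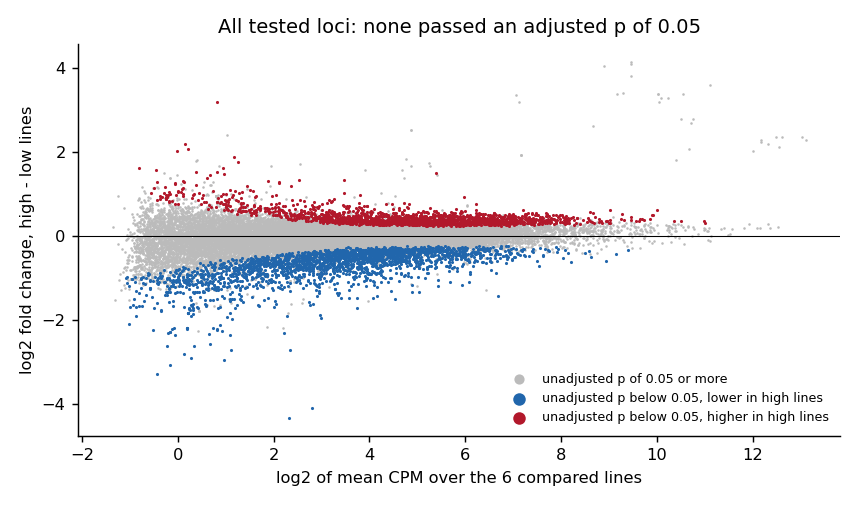
Fitted log2 fold change (high minus low lines) of the 25484 tested loci against the log2 of their mean CPM over the 6 lines, coloured where the unadjusted edgeR p was below 0.05. Most points lie within 0.5 of 0. The coloured points below the line reach further down among loci of low level, and a few very abundant loci above the line are grey.

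Higher and lower loci were not spread alike over expression levels. Among the 500 most abundant loci, 73 (14.6%) had an unadjusted p below 0.05 and were higher in the high lines, and 13 (2.6%) were lower. Among the 5484 least abundant tested loci 134 (2.44%) were higher and 434 (7.91%) lower. The median log2 fold change moved with the level, from 0.16 in the most abundant class to -0.10 in the least abundant one. By chromosome, the share that was lower with an unadjusted p below 0.05 ranged from 6.94% (chromosome 14) to 11.1% (chromosome 3) among numbered chromosomes, and was 11.9% under identifiers with no chromosome number.

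The locus with the smallest p was Potri.001G013000 on chromosome 1. It stood at 4.26, 3.76 and 5.49 CPM in lines 10, 6 and 5, and at 10.9, 11.6 and 10.1 CPM in lines 30, 17 and 1. The groups did not overlap: every low line held more than any high line. Choice by the smallest p favours such separation, here and at the other loci chosen in this way. The log2 fold change was -1.30 with an SE of 0.17 (edgeR adjusted p = 0.22). The middle lines held 8.07, 4.54 and 8.14 CPM and wild type 7.36, 4.29 and 6.87 CPM, so both of these groups overlapped the high lines and lay below all 3 low lines.

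Next came Potri.017G041100 on chromosome 17, with 6.02, 8.79 and 7.66 CPM in lines 10, 6 and 5. Its levels in lines 30, 17 and 1 were 14.0, 18.3 and 18.6 CPM, again without overlap. The difference on the log2 scale was -1.19 with an SE of 0.18 (edgeR adjusted p = 0.22). Here the middle lines lay with the high lines, at 9.44, 8.57 and 8.17 CPM. Wild type lay with the low lines, at 21.2, 17.5 and 12.3 CPM.

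The other 3 loci with the smallest p among those lower in the high lines were on chromosomes 9, 1 and 6, with log2 fold changes of -1.34, -1.84 and -1.29 (edgeR adjusted p = 0.22 for each). The locus on chromosome 9 stood at 5.85 ± 1.26 CPM in the high lines, 14.7 ± 3.03 in the low lines, 7.99 ± 2.99 in the middle lines and 39.5 ± 9.20 in wild type (SD, n = 3 each). At this locus all 9 lines lay below all 3 wild-type trees. The second locus on chromosome 1 stood at 0.941 ± 0.268 CPM in the high lines and 3.33 ± 0.188 in the low lines, with wild type between them at 1.36 ± 0.582 (SD, n = 3 each).

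Among loci higher in the high lines, Potri.004G223300 on chromosome 4 had the smallest p. It stood at 18.99, 16.9 and 16.2 CPM in lines 10, 6 and 5, and at 9.20, 10.1 and 10.8 CPM in lines 30, 17 and 1. The groups did not overlap, and the log2 difference was 0.79 with an SE of 0.13 (edgeR adjusted p = 0.22). The middle lines, at 14.9997, 14.99 and 20.4 CPM, were all above the low lines, and wild type, at 14.5, 10.4 and 14.5 CPM, had 1 tree within the low range and 2 between the groups.

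The second, Potri.004G021000 on the same chromosome, stood at 20.4, 19.1 and 16.3 CPM in lines 10, 6 and 5. In lines 30, 17 and 1 it stood at 8.00, 8.11 and 12.1 CPM, and the log2 difference was 0.98 with an SE of 0.18 (edgeR adjusted p = 0.22). The middle lines held 15.4, 16.1 and 19.7 CPM, and the wild-type trees were split, at 11.3, 11.7 and 19.999 CPM. The remaining 3 of the 5 were on chromosomes 6, 15 and 14, with log2 fold changes of 0.72, 2.02 and 0.54 (edgeR adjusted p = 0.22 for each). That on chromosome 14, the most abundant of the 10, stood at 56.7 ± 3.46 CPM in the high lines, 39.0 ± 0.525 in the low lines and 41.2 ± 4.30 in wild type (SD, n = 3 each).

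**Figure D3:**
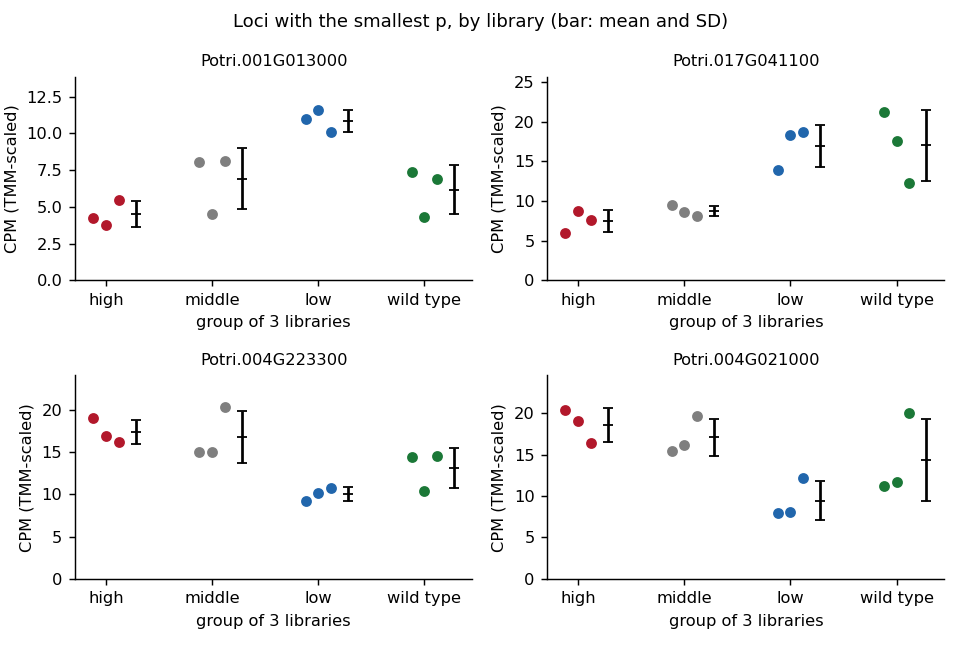
Level in CPM of the 2 loci lower and the 2 loci higher in the high lines that had the smallest p, with 1 point per library in the groups of 3 high, middle and low lines and 3 wild-type trees, and the mean and SD beside them. High and low lines do not overlap in any panel, which choice by the smallest p between them favours. In each of the 4 panels the mean of the middle lines lies nearer to that of the high lines than to that of the low lines.

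The middle lines, which the comparison did not use, lay nearer to the high than to the low lines at most of these loci. Of the 2253 loci lower in the high lines with an unadjusted p below 0.05, the middle lines' mean log2 level was nearer to the low lines at 250 (11.1%). Of the 1743 higher ones it was nearer to the low lines at 154 (8.84%), against 7459 (29.3%) of all tested loci. It lay between the high and low means at 1207 (53.6%) of the lower and 752 (43.1%) of the higher loci, against 8299 (32.6%) of all. Potri.011G041300 itself had its middle lines, at 33.7 ± 1.79 CPM (SD, n = 3), nearer to the low lines, unlike most of these loci. Wild type was nearer to the low lines at 1636 (72.6%) of the lower and 739 (42.4%) of the higher loci, against 14049 (55.1%) of all.

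A further set of loci was chosen by comparing the middle lines with wild type alone, without the values of the high and low lines. In that comparison 383 loci were lower in the 3 middle lines (1.52% of 25213 tested; edgeR, Benjamini-Hochberg adjusted p below 0.05), and 87 were higher. These counts are unsteady: leaving out 1 of the 6 libraries gave 15 to 1824 calls in both directions together, with 15, 29 and 1824 when lines 3, 26 and 9 were dropped and 41, 19 and 1208 when wild-type trees 1, 2 and 3 were. The 383 loci came from all 19 numbered chromosomes, and some identifiers carried no number.

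Of the 383 loci, 378 were tested between the high and low lines. None was called, 371 (98.1%) had a lower fitted level in the high lines, and their median log2 fold change was -0.59, against 50.7% and -0.0046 over all tested loci. An unadjusted p below 0.05 with a lower level in the high lines was met by 266 of them (70.4%, against 8.84% of all loci), and 220 (58.2%, against 9.72%) had high and low values that did not overlap. With the list taken without 1 library, or with 1 of the 6 compared lines left out, the median ran from -0.68 to -0.33. The shortest lists gave the smallest medians: -0.33 for the 8 loci found without line 3, -0.34 for 13 without wild-type tree 2, and -0.38 both for 15 without line 26 and for 27 without wild-type tree 1. It was -0.34 (354 loci lower, 24 higher) with the share of reads on the chromosome 5 stretch as a covariate, and -0.63 without lines 5, 17 and 30. The middle lines were nearer to the low than to the high lines at only 7459 (29.3%) of all tested loci. A list chosen for low values in the middle lines can therefore lean low in the high lines as well. The shares over all loci do not allow for this and are no like-for-like background. A relation between loci lower in the lines and Potri.011G041300 had been seen before in these data, so this is no independent support for it.

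Outside chromosome 3, 361 of these loci summed to 5833, 7858 and 8054 CPM in lines 10, 6 and 5. They summed to 9474, 10948 and 10307 CPM in lines 30, 17 and 1. High and low lines did not overlap. The middle lines 9, 3 and 26 stood at 7300, 6853 and 6658 CPM and the wild-type trees at 12537, 12158 and 10647 CPM; both sets of values had chosen the loci, so they are given for scale only. Among the high and low lines the sum rose as Potri.011G041300 fell, except between lines 17 and 1. Line 17, at 23.9 CPM of that locus against 23.4 in line 1, had the larger sum. Where the middle lines fall in this order is not read, because they had chosen the loci. Whether the sum is graded with the locus was not tested. Changes in the makeup of the wood cells sampled and changes of RNA within cells cannot be told apart in such bulk samples.

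**Figure D4:**
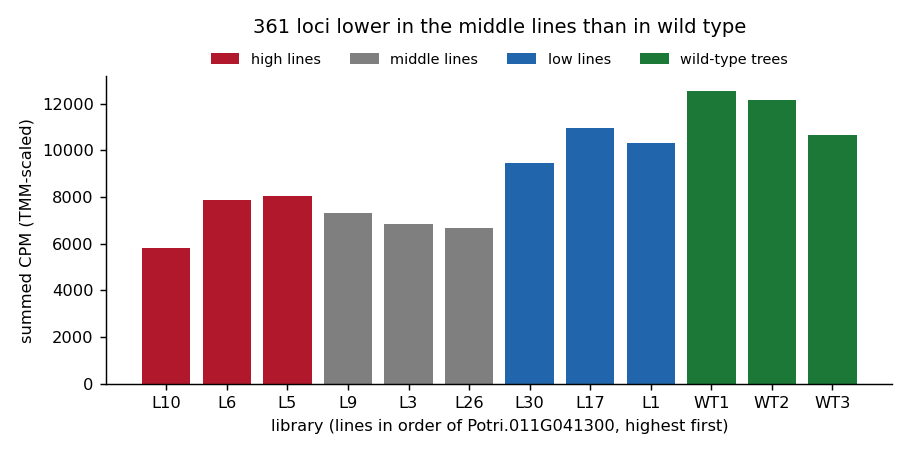
Summed CPM, in each library, of the 361 loci that were lower in the middle lines than in wild type (chromosome 3 left out), with the lines in order of Potri.011G041300. The low lines, at 9474 to 10948 CPM, stand above the high lines, at 5833 to 8054 CPM; the middle lines and wild-type trees had chosen the loci.

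Each set of lines was also compared with wild type, in 1 fit of all 12 libraries. In the high lines 19 loci were called lower (0.0723% of 26297) and 3 higher (0.0114%), and in the low lines 11 lower (0.0418%) and 1 higher (0.0038%; edgeR adjusted p below 0.05). Both comparisons share the wild-type trees. Dropping line 1 raised the high count to 83, dropping line 10 lowered it to 12, and dropping wild-type tree 1 or 2 lowered it to 14. For the low lines, 458 loci were called once line 1 was dropped, 18 once line 5 was, 8 once line 10 or 30 was, and 7 once wild-type tree 3 was. The difference between the high and low effects is the test above, which called 0 loci.

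The 383 loci had been chosen for high values in these same wild-type trees, so levels below wild type are partly built into both comparisons, and the values that no change would give are not known. They are given as a description. The 10 with the smallest p between middle lines and wild type had median log2 fold changes against wild type of -1.69 in the high lines and -1.35 in the low lines, and 10 and 7 of them were called in these comparisons (edgeR), where 0.0723% and 0.0418% of all loci were called lower. Their small p against the same trees had picked large differences from wild type. The other 373 stood at a median of -0.65 in the high lines but -0.035 in the low lines, with 8 and 3 called. Being called did not divide the 10 from the rest: 3 of them were not called in the low lines, and 3 of the other 373 were. Of the 10, the loci on chromosome 3 were not called there despite log2 fold changes of -3.64 each. Both were called in the high lines, where their levels were lower still. Among the low lines, line 17 stood apart at 1.71 CPM at each. Why they were not called in the low lines was not tested. Whether the 10 form a separate class was not tested.

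The first of the 10, on chromosome 8, stood at 108.5, 86.4 and 135 CPM in lines 10, 6 and 5. It stood at 117, 135 and 157 CPM in lines 30, 17 and 1, and at 513, 485 and 491 CPM in wild type. High and low lines overlapped (log2 fold change -0.31, SE 0.17; edgeR adjusted p = 0.39), and wild type was 4.52-fold above the high lines and 3.65-fold above the low lines.

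The second, on chromosome 1, had the lowest level in the lines of those outside chromosome 3. It stood at 2.90 ± 1.36 CPM in the high lines, 4.90 ± 1.16 in the low lines and 26.3 ± 3.05 in wild type (SD, n = 3 each; high against low, edgeR adjusted p = 0.28). Its values in the high and low lines overlapped.

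On chromosome 6, 3 loci next to each other were 2.58-fold, 2.97-fold and 2.99-fold lower in the high lines than in wild type. The same loci were 2.11-fold, 2.35-fold and 2.32-fold lower in the low lines. At each of the 3 the high and low values did not overlap, with log2 fold changes between them of -0.29, -0.34 and -0.38 (edgeR adjusted p = 0.26 to 0.27). High values all below the low ones were found at 9.72% of all tested loci and at 58.2% of the 378 tested from the list. A locus on chromosome 16 and another on chromosome 10 were likewise lower in both sets of lines, at 52.1 ± 11.0 and 45.4 ± 8.73 CPM in the high lines, 67.1 ± 5.87 and 54.2 ± 11.1 in the low lines, and 181 ± 10.3 and 131 ± 10.5 in wild type (SD, n = 3 each). How reads shared between such neighbours were counted is not stated, so the level of each alone is uncertain.

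The other 3 of the 10 lay on chromosomes 3 (2 loci) and 4. Those on chromosome 3 were at 0.0806 ± 0.0701 and 0.136 ± 0.182 CPM in the high lines (SD, n = 3 each), against wild-type means of 8.56 ± 1.92 and 9.03 ± 3.24 CPM, and were too low in the lines to be tested between high and low. In the low lines they were at 0.660 ± 0.921 and 0.695 ± 0.890 CPM, where line 17 alone held 1.71 CPM at each. The locus on chromosome 4 stood at 12.4 ± 0.470 CPM in the high lines, 14.5 ± 1.33 in the low lines and 20.1 ± 0.409 in wild type (SD, n = 3 each).

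**Figure D5:**
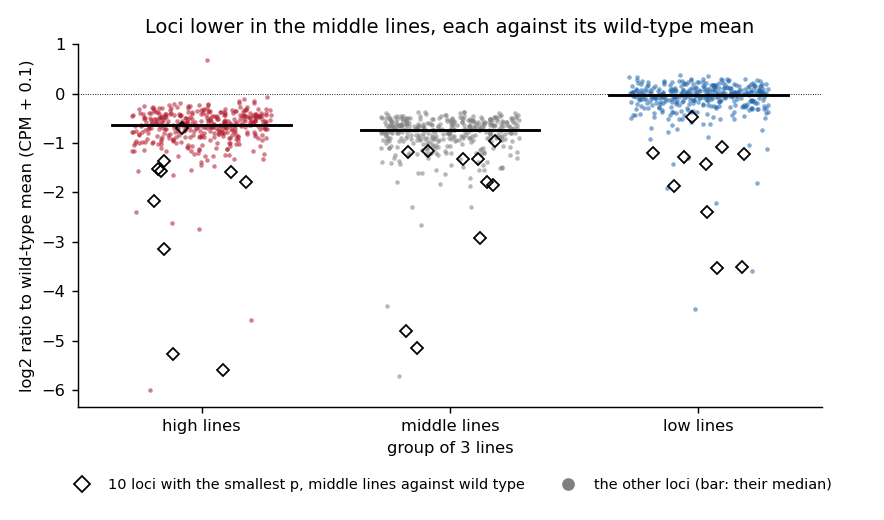
Ratio of the mean CPM of each group of 3 lines to the wild-type mean, as log2 with 0.1 CPM added to both, for the 383 loci lower in the middle lines than in wild type; diamonds are the 10 loci with the smallest p in that comparison, and bars are the medians of the other 373. The cloud of the low lines lies around 0 (median -0.03) and those of the high and middle lines at -0.63 and -0.73, while the diamonds lie below 0 in all 3 groups; the middle lines and the wild-type means had chosen the loci.

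The 87 loci higher in the middle lines than in wild type showed the opposite lean, less fully. Of these, 66 had a higher and 21 a lower fitted level in the high than in the low lines, and 0 were called (edgeR adjusted p below 0.05). The share with a lower level was 24.1%, against 50.7% of all tested loci. The median log2 fold change of the 87 was 0.19, against -0.0046 over all tested loci. An unadjusted p below 0.05 was met by 21 (24.1%) in the higher direction and by 3 (3.45%) in the lower, against 6.84% and 8.84% of all loci. This list was also chosen on the middle lines and changed with single libraries, so it carries the same limits as the lower list.

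Loci were also ranked by the likeness of their log2 levels to that of Potri.011G041300 over the 9 lines, as a description. Pearson's r ran from -0.96 to 0.96 over the tested loci, with 230 above 0.8 and 363 below -0.8. The 5 most alike, on chromosomes 14 (2 loci), 3, 18 and 15, differed little between high and low lines, by log2 fold changes of 0.23 to 0.42. The 5 most opposed, on chromosomes 1 (2 loci), 3, 12 and 18, had log2 fold changes of -0.99 to -0.54. None of the 10 was called (edgeR adjusted p = 0.24 to 0.37).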

How the data were processed

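The authors deposited 1 table of raw read counts per transcript model, with 1 column per tree. The tools named, per the submitters' processing notes, are bedtools 2.14.2, Bowtie, TopHat and TopHat2 2.0.3, without their roles. The genome build, the strand setting and the handling of multiply aligned reads are not stated. For each of 41335 loci the model with the most reads over the 12 libraries was kept. Of the tested loci, 234 had the same counts as another tested locus in all libraries and are not independent. Levels are TMM-scaled CPM. High and low lines were compared with edgeR 4.0.16 (R 4.3.3; filterByExpr with minimum count 10, robust quasi-likelihood fit of the 6 libraries, no covariate). The comparisons with wild type used a 4-group fit of 12 libraries (high, low) and a fit of 6 libraries (middle). DESeq2 1.42.0 and limma-voom (limma 3.58.1) were alternatives. The SE is the log2 fold change over the square root of F. Log2 levels for likeness used a prior count of 2.

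The lines, the lists and the alternatives were chosen with earlier results of these data known, and the comparisons with wild type were added after the data were seen. With 3 against 3 lines an exact permutation test could not go below p = 0.1 and was not used. The rule for named loci was the 5 with the smallest p in each direction where fewer than 5 were called. At most 2 identifiers in each direction are printed, because no names match them. The planned lists by gene function and the laccase list needed descriptions and were not run.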

Additional observations from a re-analysis of the deposited data

Results flagged for a closer look

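Among the 9 lines, 38 sets of values were examined for 1 line standing apart. The gap to the nearest line over the whole range was set against Dixon's 95% critical value, and 4 stood out. Chance alone would mark about 1 in 20 sets not picked from the data. Most of these sets were loci picked from these same data, so that rate does not hold here. The 2 loci on chromosome 3 with the smallest p between middle lines and wild type each stood at 1.71 CPM in line 17, above 0.418 and 0.299 CPM in the next line. A locus on chromosome 3 and another on chromosome 18, both among the 5 most like Potri.011G041300, stood at 6.91 and 26.4 CPM in line 10. The next line held 5.61 and 22.7 CPM. Line 10 was also highest for Potri.011G041300, so choice by likeness favours such values. Their likeness without line 10 was not computed.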

How the results depend on the processing

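The count of loci called between high and low lines (0) was 1 with library totals, 247 with DESeq2 and 80 without lines 5, 17 and 30; leaving out 1 line gave 0 to 25. The high lines against wild type (22 calls) gave 14 with library totals, 641 with DESeq2, 83 with the chromosome 5 share as covariate and 62 without lines 5, 17 and 30, and 12 to 83 with 1 tree left out. The low lines against wild type (12 calls) gave 21, 110, 6 and 6 under these settings, and 7 to 458. The middle lines against wild type (470 calls) gave 1201 with DESeq2, 822 with no filter, 240 with limma-voom, 52 with the covariate, 2176 with every transcript model tested on its own, and 15 to 1824. The median of the 383 loci (-0.59) was -0.34 with the covariate, and -0.68 to -0.33 with 1 library left out. What caused these shifts was not tested. The 5 loci with the smallest p in each direction had the same direction in all 200 recomputed fold changes, which is no sign of stability since they were picked by p, and were called in 14 of them. No paired analysis was possible because the line numbers name transgenic lines and those of wild type name trees. Loci of under about 1 CPM rest on few reads in line 5, the shallowest library. Gene lists by function and the laccase list were not run.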
